A study of Mus musculus with 16 samples.

Results

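The question was whether glycerol changed kidney transcripts by the same amount in wild-type mice and in mice without complement C3. For every gene the log2 change from PBS to glycerol in WT kidney was subtracted from the same change in C3-/- kidney, so a negative difference of responses means a smaller rise or a larger fall in C3-/-. All 16 libraries entered the fit, and the 18035 of 20525 genes that reached a normalised count of 10 in 4 or more of them were tested. The difference of responses passed limma's test at a Benjamini-Hochberg adjusted p below 0.05 in 79 genes, 0.438% of those tested; 40 of them (0.222%) had a positive and 39 (0.216%) a negative difference. Such genes are referred to as called.

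The libraries were made from total RNA of 30 µm frozen sections of kidney, and RNA was eligible for reverse transcription at an integrity number above 7. The mice were 8 weeks old and of the background given as C56BL/6, either WT or C3-/-. They received PBS, or rhabdomyolysis was induced with 7.5 ml/kg of 50% glycerol injected into a thigh muscle. Both genotypes had 4 libraries after PBS and 4 after glycerol. Neither sex nor sampling time is labelled, and nothing states that each library is a different animal, so p-values measure the spread between these libraries, which may be technical. They also do not say how the C3 gene was disrupted or whether the genotypes were littermates.

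Complement C3 is the plasma protein on which the pathways of complement activation converge; its cleavage yields fragments that coat surfaces and fragments that act on receptors of leukocytes and other cells. Injected glycerol damages muscle, and the myoglobin and heme that are released reach the kidney, where they injure tubules. Injured tubule cells lose transporter transcripts and gain injury markers, cytokines and stress-response transcripts, so the responses of those groups can be compared between the genotypes.

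The libraries were uneven in ways that touch every result. The description labels end in an S number. Most numbers occur once, but S3, S4 and S5 each occur on a second library as well, and those 3 libraries with repeated S numbers (replicate 4 of WT glycerol, and replicates 1 and 3 of C3-/- glycerol) stood apart on the first principal component, which held 45% of the variance: they lay at 96.4 to 220.4 and the other 13 at -58.6 to 39.5. What the repeated numbers stand for is not stated. Without them the fit had 7 WT and 6 C3-/- libraries and is called the 13-library fit. Its C3-/- glycerol group held replicates 2 and 4 alone. That fit called 1858 differences of responses (10.3% of genes, 4.88% positive and 5.42% negative), against 79 with all libraries. It also called 10028 changes in WT (55.6%; 26.7% rises and 28.9% falls), 4142 in C3-/- (23%; 12.4% rises and 10.6% falls) and 3481 genotype differences after PBS (19.3%; 9.29% higher and 10% lower in C3-/-). Summed Y-linked transcripts were 3266 to 6318.9 normalised counts in 11 libraries, among them all 8 WT, and at most 3.4 in the other 5, which were C3-/- PBS replicates 1, 2 and 3 and C3-/- glycerol replicates 1 and 2. Sex and genotype therefore partly coincided. All 79 calls kept their sign and were called in the 13-library fit, and again in a fit of all 16 libraries with terms for the repeated S numbers and for Y-linked transcripts. Both fits reuse libraries from which the 79 were chosen, so their agreement was largely set beforehand. In a fit of the 11 libraries with Y-linked transcripts, all 79 differences kept their sign, with a median ratio of 1.03 to those of all 16 libraries. The 79 were chosen from data that held these same 11 libraries, all 8 WT among them, so that agreement was largely set beforehand. The part of sex in the differences was therefore not tested by it. The fit of 11 libraries had 1 C3-/- PBS library, which is assumed to vary like the others, so its tests of single genes rest on that assumption.

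C3 itself, on chr17:57203970-57228136 (GRCm38), did not check the C3-/- label. Its normalised counts after PBS were 334.9, 361.4, 470.5 and 425 in WT and 819.4, 1139.7, 860 and 563.8 in C3-/-. After glycerol they were 3728.7, 1711.7, 2782.8 and 4717.5 in WT and 8008, 1457.3, 5495.3 and 1587.2 in C3-/-. Reads of this gene were thus counted in every library labelled C3-/-, at levels that overlapped those of WT after glycerol; gene totals do not show which exons they came from. The difference of responses was -0.98 ± 0.68 (log2, SE, n = 4 libraries a group; 95% interval -2.42 to 0.46; limma adjusted p = 0.728), and -1.83 in the 13-library fit (adjusted p = 0.014).

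The prevailing pattern was a smaller change in C3-/- kidney. WT kidney had 4666 called changes after glycerol (25.9% of genes; 2262 rises, 12.5%, and 2404 falls, 13.3%), and C3-/- kidney had 1016 (5.63%; 663 rises, 3.68%, and 353 falls, 1.96%). At an unadjusted limma p below 0.05 the counts were 6844 in WT and 4457 in C3-/-. The DESeq2 results deposited by the authors had 5934 and 3181 of 20525 genes at an adjusted p below 0.05. The size of the gap thus depends on the threshold and the test. Of the 79 genes with a called difference of responses, 75 had changed in WT, 16 in C3-/-, and 75 had the larger change in WT. Across the 2262 rises called in WT the median log2 change was 1.16 in WT and 0.64 in C3-/-; across the 2404 falls it was -1.42 and -0.63. Genes picked for passing a test in WT have changes that are biased away from zero there, so those medians are a description. Among genes called in C3-/-, the medians lay nearer to each other: 1.35 in C3-/- and 1.42 in WT for rises, and -1.27 and -1.36 for falls. In 39.5% of those rises and 41.4% of those falls the smaller change was the one in WT. Direction was mostly common to the genotypes, with the same sign in 93.1% of WT-called rises, 91.1% of WT-called falls, 97.7% of C3-/- called rises and 97.2% of C3-/- called falls.

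**Figure D1:**
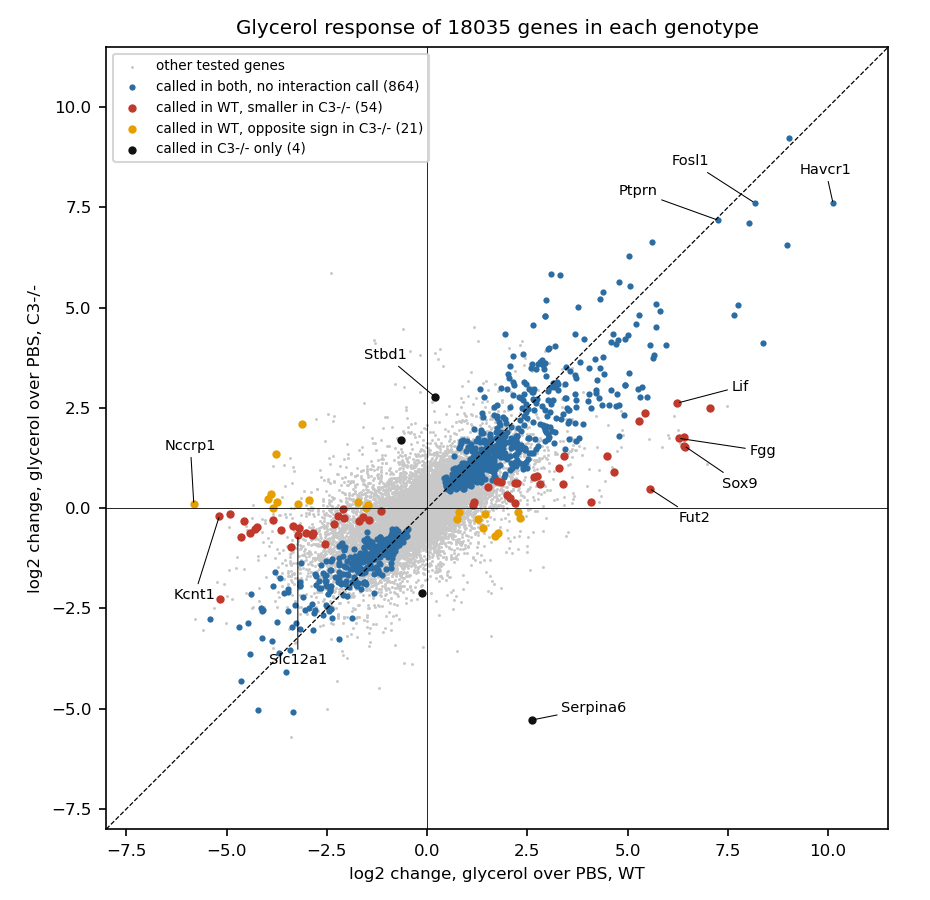
Response to glycerol of each of the 18035 tested genes in WT (x axis, log2 change) and in C3-/- kidney (y axis, log2 change). Blue points mark 864 genes called in both genotypes in 1 direction with no called difference, and red 54 with a smaller change in C3-/-. Orange points mark 21 with opposite fitted signs, not called in C3-/-, and black 4 called in C3-/- only. The dashed line marks equal responses. The red points lie nearer to the horizontal axis than the dashed line does, both for rises and for falls.

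Genes were sorted into classes by the calls. A shared response was one called in both genotypes with the same sign and with no called difference of responses; 864 genes met this, 575 rises and 289 falls. In 316 of these the 95% interval of the difference lay within 1 log2 unit of 0 on either side; in the remainder a difference of that size was not excluded by its interval. In the 13-library fit the difference was called in 104 of the 575 shared rises and 28 of the 289 shared falls. A smaller response of the same sign in C3-/- described 54 genes (28 rises and 26 falls in WT). Another 21 genes had called changes in WT (9 rises and 12 falls) and fitted changes of the opposite sign in C3-/-. None of those 21 was called in C3-/-, so a reversal is not shown. Called changes only in C3-/- were found for 4 genes. A further 3727 genes were called in WT and 136 in C3-/- without a call in the other genotype or of the difference.

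Shared rises included transcripts of injury, detoxification and secretion. Havcr1, whose product KIM-1 marks injured tubules, had normalised counts of 21.5, 94.5, 40.2 and 28 in WT PBS and 57981.5, 46259, 52728.6 and 28049.5 in WT glycerol. Its C3-/- libraries had 21.7, 7.5, 18.7 and 22.6 after PBS and 3449.7, 3578.6, 1088.4 and 9458.3 after glycerol. Every glycerol library exceeded every PBS library, and every C3-/- glycerol library was below every WT one; the difference of responses of -2.52 ± 0.81 did not pass (interval -4.25 to -0.80, adjusted p = 0.215). Ptprn, a protein of dense-core secretory granules, had 489.9, 643.6, 485 and 693.7 in WT glycerol and 1881.3, 912.4, 214.6 and 528.9 in C3-/- glycerol, from 6.7 or less after PBS in both genotypes. The glycerol groups overlapped, and the log2 changes of 7.26 and 7.18 differed by -0.09 ± 0.85 (interval -1.89 to 1.72). Gsta1, a glutathione transferase, had 2869 to 5105.9 in WT glycerol and 4496.9 to 8723.1 in C3-/- glycerol, with log2 changes of 8.03 and 7.10 (interval of the difference -2.35 to 0.49).

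Other rises of this class were known only within wide limits. Fosl1, a subunit of the AP-1 transcription factor, had log2 changes of 8.17 and 7.61 (interval of the difference -4.30 to 3.20). Krt20, a keratin, had 8.97 and 6.57 (-5.60 to 0.80), and Vgf, a precursor of secreted peptides, had 7.76 and 5.06 (-4.75 to -0.65). Intervals of this width do not show that the responses were alike.

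Shared falls included proximal tubule transcripts. Slc5a12, a lactate transporter of the proximal tubule, had 8256.5, 7802, 7751.3 and 8775.1 in WT PBS and 929.1, 251.9, 1519.5 and 722.5 in WT glycerol. The C3-/- values were 11377, 10150.3, 8892 and 12466.8 after PBS and 115.2, 1299.7, 421.7 and 2398.6 after glycerol. Glycerol libraries were below all PBS libraries in both genotypes, and the glycerol groups overlapped; the difference of responses was -0.58 (interval -2.72 to 1.57). Clec2h, a C-type lectin, had 88.2 to 230 in WT glycerol and 87 to 213.9 in C3-/- glycerol, from at least 1160.6 after PBS. Its log2 changes of -3.42 and -3.54 differed by -0.11 ± 0.46 (interval -1.09 to 0.87). Cyp2d26, a cytochrome P450, had -3.37 and -2.96 (interval of the difference -0.44 to 1.26). Bhmt, betaine-homocysteine methyltransferase, had -3.68 and -3.61, with a wide interval of the difference (-2.76 to 2.91). It was already higher in C3-/- after PBS, by 4.26 (limma adjusted p = 0.025). Its C3-/- PBS values were 3201.2, 2606.9 and 2493.4 without Y-linked transcripts and 450.4 with them, against 61.4 to 143.3 in WT PBS. With terms for the repeated S numbers and Y-linked transcripts, its C3-/- fall was -2.19 and not called (limma adjusted p = 0.088). In bulk kidney, fewer cells of a type and less RNA per cell cannot be told apart, which holds for all falls and rises given here.

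**Figure D2:**
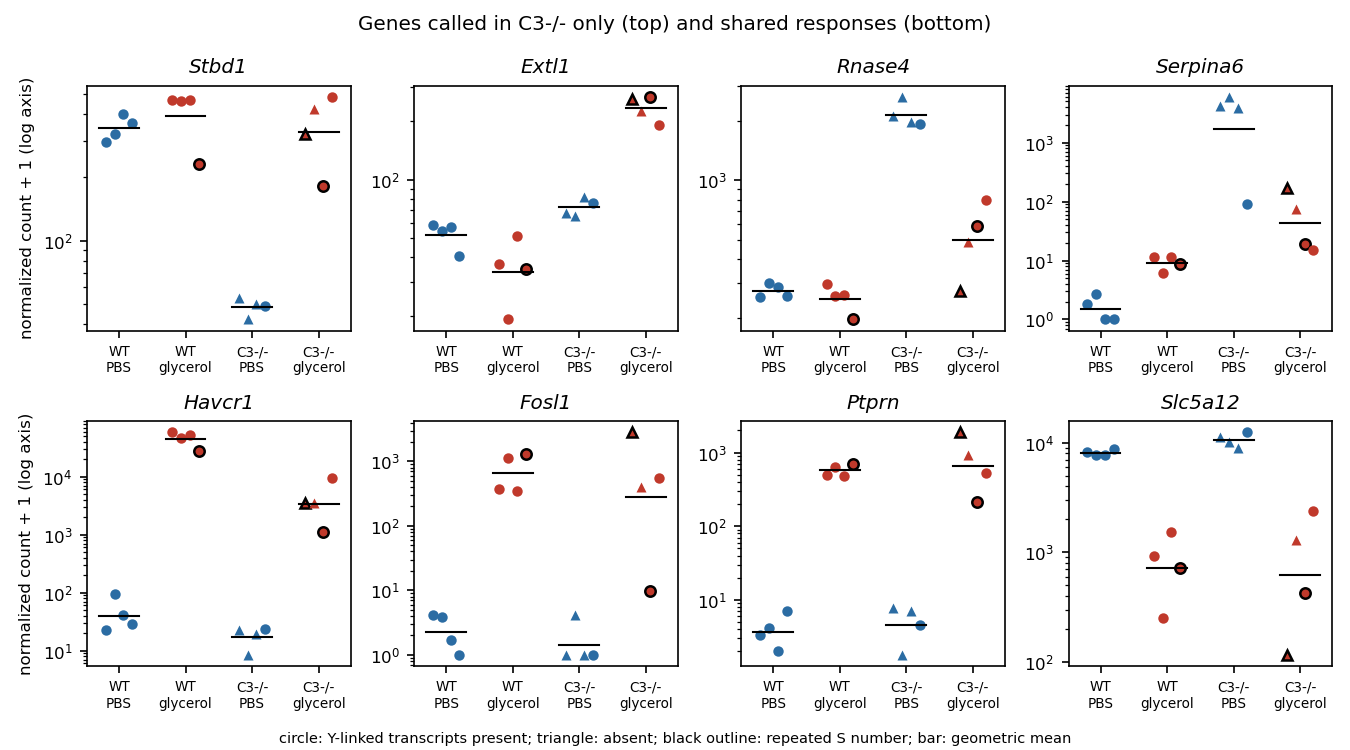
Normalised count plus 1 (log axis) in each library for genes called only in C3-/- and for genes with shared responses. Blue is PBS and red glycerol, and circles mark libraries with Y-linked transcripts and triangles those without. A black outline marks a repeated S number, and bars are geometric means of 4 libraries. Stbd1 and Extl1 separate the C3-/- groups and not the WT groups (for Stbd1 through WT glycerol replicate 4), whereas Havcr1, Ptprn and Slc5a12 separate PBS from glycerol in both genotypes.

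Among rises that were smaller in C3-/- was that of the transcription factor Sox9, which marks regenerating tubule cells (chr11:112782224-112787760). Its normalised counts were 9.6, 15.5, 19.2 and 11 in WT PBS and 1202, 788.5, 890.5 and 2644.5 in WT glycerol. In C3-/- they were 28.8, 20, 11.6 and 14.5 after PBS and 91, 57.4, 27.2 and 58.7 after glycerol. The WT groups were far apart, the C3-/- groups overlapped, and no C3-/- glycerol library reached the lowest WT glycerol library. The log2 change was 6.42 ± 0.43 in WT and 1.55 in C3-/- (adjusted p = 0.048), a difference of -4.86 ± 0.61 (limma adjusted p = 0.00286). Fut2, a fucosyltransferase (chr7:45648591-45666394), had 225.2, 260.4, 168.8 and 205.1 in WT glycerol and 1.3, 4.2, 3 and 2.9 in C3-/- glycerol, with 0.8 to 5.6 over all PBS libraries. Its rise of 5.55 ± 0.44 in WT stood beside 0.49 in C3-/- (adjusted p = 0.46), a difference of -5.06 ± 0.62 (adjusted p = 0.00268). The 28 genes of this class had a median log2 change of 3.34 in WT and 0.73 in C3-/-, and 10 of them were called in C3-/-.

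Secreted signals formed part of this class. Lif, which signals through the receptor chain shared by interleukin-6-type cytokines (chr11:4257557-4272514), had 12.2, 5.2, 10.5 and 8.7 in WT PBS and 612, 1214, 578.7 and 707.6 in WT glycerol. C3-/- kidney had 20.7, 12.5, 6.4 and 9.1 after PBS and 60.3, 85, 40.8 and 141.5 after glycerol. Glycerol libraries were above PBS libraries in both genotypes, but the C3-/- glycerol group lay wholly below the WT one, and the rises of 6.24 ± 0.42 and 2.62 (adjusted p = 0.0021) differed by -3.62 ± 0.59 (interval -4.89 to -2.35, adjusted p = 0.012). Ccl20, a chemokine that attracts lymphocytes and dendritic cells (chr1:83116766-83119167), had 122.2, 205.1, 101.3 and 195.5 in WT glycerol and 9.6, 5.5, 1 and 2.9 in C3-/- glycerol, with at most 2.2 after PBS. The difference of -4.64 ± 0.82 passed (adjusted p = 0.021), but not without WT PBS replicate 1 or 3, WT glycerol replicate 2 or C3-/- PBS replicate 2 or 3, where the adjusted p reached 0.0622.

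The neutrophil-attracting chemokine Cxcl5 was listed at 0 in all 8 PBS libraries. It had 105.9, 96.2, 61.4 and 82.4 in WT glycerol and 3, 1.5, 0 and 6 in C3-/- glycerol (adjusted p of the difference = 0.00979). The next genes were chosen after their values were seen. Il1f6, an interleukin-1 family cytokine, and the chemokine Cxcl3 were also listed at 0 after PBS; Il1f6 had 93.6 to 213.7 in WT glycerol and 1.6 to 11.6 in C3-/- glycerol (adjusted p = 0.0109), and Cxcl3 had 18.8 to 30.2 and 0 to 3.9 (adjusted p = 0.0359). The monocyte chemokine Ccl12 had 154.5 to 192.2 in WT glycerol and 9.2 to 29.9 in C3-/- glycerol, with log2 changes of 5.44 and 2.37 (difference -3.07, adjusted p = 0.0392). Osmr, a receptor chain for oncostatin M of the interleukin-6 family, had 1564.8 to 2029.7 and 174.1 to 462.6, with log2 changes of 2.67 and 0.79 (difference -1.88 ± 0.38, adjusted p = 0.0412). In all 4 genes every C3-/- glycerol library was below every WT glycerol library. The Il1f6 call was kept whichever library was left out. For Cxcl3 and Osmr it was lost without any PBS library or WT glycerol replicate 1 or 2, for Cxcl3 also without C3-/- glycerol replicate 4 and for Osmr without replicate 2, with adjusted p of up to 0.0921 and 0.109. The Ccl12 call was kept only with WT PBS replicate 1, WT glycerol replicate 4, C3-/- PBS replicate 4 or C3-/- glycerol replicate 1 omitted and otherwise reached 0.106.

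Because Lif, Ccl20 and Fgg (described next) had large rises in WT and smaller ones in C3-/-, the bases just before their start sites are shown, from RefSeq on GRCm38.p6, plus strand, 5′ to 3′. Capitals mark matches to AP-1 (TGANTCA), STAT (TTCNNNGAA) or NF-kB (GGG, any 2 bases, then TTTCC), searched on both strands in the 250 bases before the start.
Lif, chr11:4257318-4257556, capitals an AP-1 match: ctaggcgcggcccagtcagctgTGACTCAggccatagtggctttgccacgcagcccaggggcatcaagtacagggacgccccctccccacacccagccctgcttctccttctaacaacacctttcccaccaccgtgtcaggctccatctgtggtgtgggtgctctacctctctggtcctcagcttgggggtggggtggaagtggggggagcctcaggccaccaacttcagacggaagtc
Ccl20, chr1:83116516-83116765, capitals an NF-kB match: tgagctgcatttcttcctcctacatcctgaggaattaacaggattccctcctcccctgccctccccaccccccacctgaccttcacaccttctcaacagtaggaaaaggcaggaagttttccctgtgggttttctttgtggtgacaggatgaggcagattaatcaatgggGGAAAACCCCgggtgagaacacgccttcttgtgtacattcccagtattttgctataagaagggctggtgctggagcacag
Fgg, chr3:83007474-83007723, no match: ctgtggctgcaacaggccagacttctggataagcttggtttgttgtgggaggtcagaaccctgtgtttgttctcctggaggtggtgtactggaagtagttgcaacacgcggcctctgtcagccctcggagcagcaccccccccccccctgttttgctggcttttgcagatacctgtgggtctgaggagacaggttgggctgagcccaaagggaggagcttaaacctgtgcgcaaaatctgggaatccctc
The AP-1 match of Lif starts 228 bases before the RefSeq start, which lies a few bases inside the gene position given above, so the stretch printed stops short of that start. The NF-kB match of Ccl20 starts 80 bases before its start. Promoters of 12420 tested genes were matched by symbol, and 6.1% held AP-1, 7.4% STAT and 1.9% NF-kB. Of the 37 WT rises that were smaller or of opposite sign in C3-/-, 28 were matched, of which 3 held AP-1 (10.7%), 1 STAT (3.6%) and 2 NF-kB (7.1%). Of 440 matched shared rises 10.2% held AP-1, 8.2% STAT and 5.0% NF-kB. A match is a description of letters, not of binding.

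Fgg and Serpina10 were also in this class. Fgg, the gamma chain of fibrinogen (chr3:83007724-83015049), had 236.9, 181.7, 151 and 162 in WT PBS and 22623.3, 9522.1, 13040.8 and 13630.5 in WT glycerol. In C3-/- it had 327.4, 236.7, 222.9 and 281 after PBS and 1304.8, 1503.1, 124.6 and 2517.2 after glycerol. C3-/- glycerol replicate 3 was below its PBS group while the others were above it. The rise of 6.27 ± 0.65 in WT and the value of 1.74 in C3-/- (adjusted p = 0.12) differed by -4.53 ± 0.92 (adjusted p = 0.0446); this call was kept only when WT glycerol replicate 4 or C3-/- glycerol replicate 1, 3 or 4 was the library left out, and the difference ran from -5.03 to -3.59 with an adjusted p of up to 0.108. In the 13-library fit the difference was -3.41 (adjusted p = 0.00099). Serpina10, a protease inhibitor of coagulation, had 874 to 1697.9 in WT glycerol and 239.3 to 740.8 in C3-/- glycerol, with rises of 5.28 and 2.18 (difference -3.10 ± 0.48, adjusted p = 0.0109). It was already higher in C3-/- after PBS, by 1.63 (adjusted p = 0.019).

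**Figure D3:**
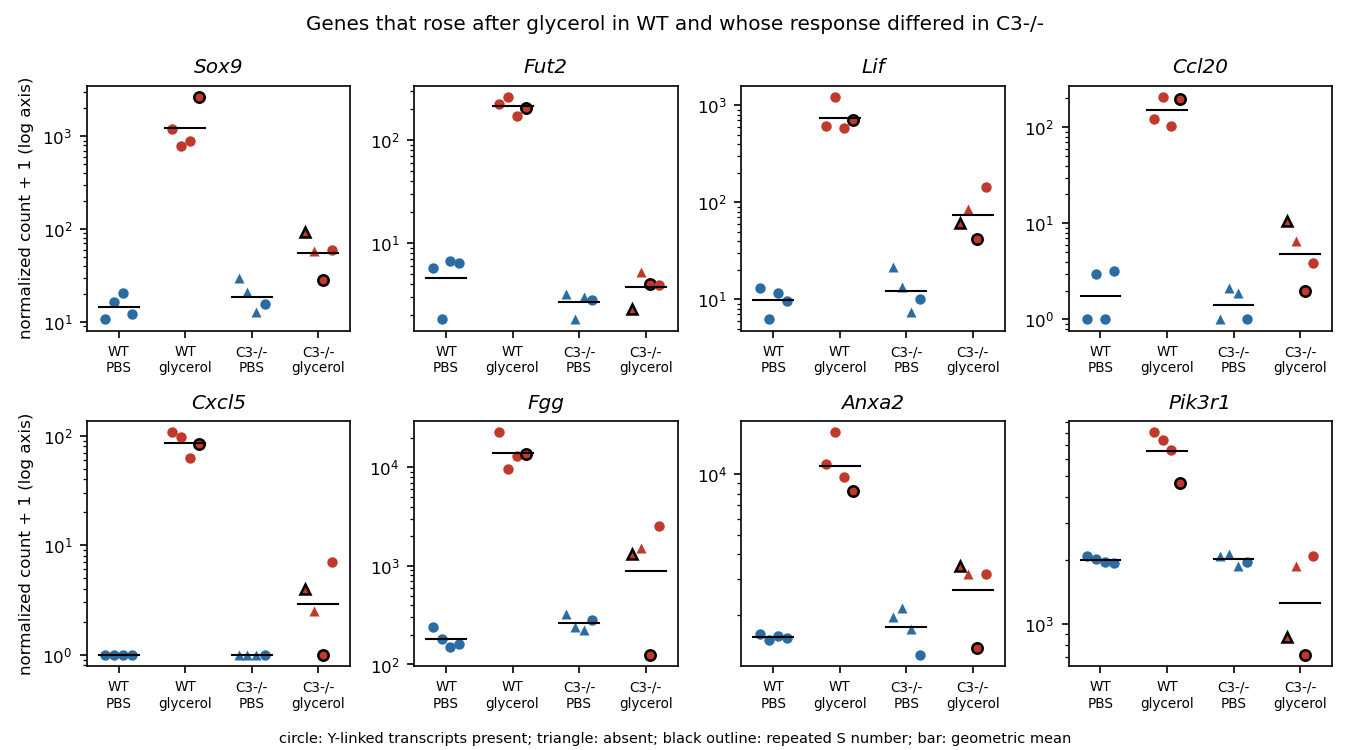
Normalised count plus 1 (log axis) in each library for genes that rose after glycerol in WT and whose response differed in C3-/-; blue is PBS and red glycerol, circles mark libraries with Y-linked transcripts and triangles those without, a black outline marks a repeated S number, and bars are geometric means of 4 libraries. Sox9, Fut2, Lif and Cxcl5 show C3-/- glycerol libraries that all lie below the WT glycerol libraries.

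Anxa2, Uhrf1 and Ch25h had smaller rises in C3-/- as well. Anxa2, a membrane-binding protein that promotes plasmin formation, had 1594.2, 1493.1, 1564.2 and 1529.5 in WT PBS and 11217, 16125.7, 9650.1 and 8200.7 in WT glycerol. Its C3-/- libraries had 1938.1, 2160.1, 1694.3 and 1264.1 after PBS and 3489.6, 3185.3, 1367.4 and 3188.7 after glycerol. C3-/- glycerol replicate 3 fell within the PBS range, and the other 3 lay between the PBS and the WT glycerol libraries. The difference was -2.21 ± 0.40 (adjusted p = 0.0214), with an adjusted p of up to 0.0674 when any WT PBS library, WT glycerol replicate 1 or C3-/- PBS replicate 1, 2 or 3 was left out. Uhrf1, which maintains DNA methylation in dividing cells, had rises of 3.42 in WT and 1.29 in C3-/- (difference -2.13 ± 0.35, adjusted p = 0.012); its C3-/- PBS libraries were higher than WT by 1.04 (adjusted p = 0.039). Ch25h, which makes 25-hydroxycholesterol, had 209.9 to 536.9 in WT glycerol and 58 to 81.9 in C3-/- glycerol, with rises of 3.28 and 1.01 (difference -2.27 ± 0.37, adjusted p = 0.012).

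Plac8 and Chil3 were also in this class. Plac8 had 674.5 to 874.2 in WT glycerol and 236.3 to 413.3 in C3-/- glycerol, with log2 changes of 2.06 and 0.24 (difference -1.81 ± 0.26, adjusted p = 0.00841). Chil3, a chitinase-like protein made by macrophages, had 66.1 to 483.8 and 1.7 to 9.2, with 4.09 and 0.16 (difference -3.93 ± 0.78, adjusted p = 0.0392). The glycerol groups did not overlap in either gene; the Chil3 call was kept only with WT glycerol replicate 3 or 4 or C3-/- glycerol replicate 1 or 4 as the omitted library, and its adjusted p otherwise reached 0.106.

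Rises in WT with a fitted change of opposite sign in C3-/- numbered 9, with medians of 1.44 and -0.26. None of the 9 was called in C3-/-. Pik3r1, the regulatory subunit of PI3-kinase, had 2097.1, 2040.2, 1961 and 1945.4 in WT PBS and 8058.5, 7392.9, 6679.9 and 4625.6 in WT glycerol. The C3-/- values were 2101, 2150.8, 1889.4 and 1958.9 after PBS and 868.4, 1891.4, 716.2 and 2101.2 after glycerol. The low C3-/- glycerol values, 868.4 and 716.2, were those of the 2 libraries with repeated S numbers. The log2 change was 1.70 in WT and -0.69 in C3-/- (adjusted p = 0.17), a difference of -2.39 ± 0.41 (adjusted p = 0.0161; 0.0518 without C3-/- PBS replicate 2). In the 13-library fit the C3-/- change was -0.02 and the difference -1.89. Cldn1, a tight junction protein of parietal epithelial cells, had rises of 1.76 in WT and a value of -0.63 in C3-/- (adjusted p = 0.15; difference -2.39 ± 0.36, adjusted p = 0.0109), and was higher in C3-/- after PBS by 1.15 (adjusted p = 0.029).

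Signalling genes among the remaining negative differences, chosen after their values were seen, had smaller differences. Smad3, which relays TGF-beta signals, had changes of 0.75 in WT and -0.26 in C3-/- (difference -1.02, adjusted p = 0.0214). Tifa, an adaptor of NF-kB activation, had a difference of -1.89 (adjusted p = 0.04), and Mapkapk2, a kinase downstream of p38, had -1.02 (adjusted p = 0.0269). Flot1 and Flot2, membrane scaffold proteins that pair with each other, had -1.55 (adjusted p = 0.0382) and -0.88 (adjusted p = 0.0392). All 5 were called with the same sign in the 13-library fit. With 1 of the 16 libraries omitted, each lost its call in several fits. Mapkapk2, Flot2 and Tifa lost it without any PBS library or WT glycerol replicate 1 or 2 (for Tifa also replicate 3), with adjusted p of up to 0.0797, 0.112 and 0.106. Flot1 lost it without any PBS library, WT glycerol replicate 1 or C3-/- glycerol replicate 2, 3 or 4 (up to 0.103), and Smad3 without WT PBS replicate 1, 2 or 4, WT glycerol replicate 1 or C3-/- PBS replicate 1, 2 or 3 (up to 0.0728).

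Nccrp1 fell in WT and had a fitted change of opposite sign in C3-/-; it encodes a protein related to F-box proteins (chr7:28543596-28547254). It had 1463.4, 1095.3, 965.8 and 1404 in WT PBS and 30.8, 10.9, 31 and 16.8 in WT glycerol. C3-/- kidney had 2539.6, 3300, 2105.3 and 1323.8 after PBS and 4790.4, 2474.5, 2371.3 and 1084.6 after glycerol. The WT groups were far apart and the C3-/- groups overlapped fully. The log2 change was -5.82 ± 0.42 in WT and 0.10 in C3-/- (limma adjusted p = 0.89). The difference was 5.91 ± 0.59 (interval 4.65 to 7.18, limma adjusted p = 0.000976). Over the 26 falls that were smaller in C3-/- the medians were -3.21 in WT and -0.46 in C3-/-, where 2 of the 26 were called. Over the 12 falls with opposite sign they were -3.49 and 0.15, and none of the 12 was called in C3-/-.

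Transport by the thick ascending limb and the distal tubule gave the best known of these genes. Slc12a1 encodes NKCC2, the sodium-potassium-chloride cotransporter of the thick ascending limb (chr2:125152505-125230002). It had 68896.4, 60858.6, 61388 and 65978.8 in WT PBS and 7339.4, 5723.5, 10405.3 and 5127.7 in WT glycerol. In C3-/- it had 82201.7, 101857, 73207.6 and 58568.2 after PBS and 61938.1, 67747.4, 25287.4 and 52202 after glycerol. C3-/- glycerol replicate 3 was the lowest of its group, yet all 4 were above every WT glycerol library. The changes of -3.22 ± 0.31 in WT and -0.67 in C3-/- (adjusted p = 0.19) differed by 2.55 ± 0.43 (interval 1.62 to 3.48, adjusted p = 0.0153), and by 2.70 in the 13-library fit.

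Klhl3, an adaptor that targets WNK kinases of the distal tubule for degradation, had 2053.6, 1863, 1875.3 and 2260.8 in WT PBS and 427, 293.7, 455.1 and 449.4 in WT glycerol. Its C3-/- libraries had 2093.4, 2044.9, 1963.3 and 2031.2 after PBS and 1780.2, 1724, 1529.4 and 1188.4 after glycerol. The C3-/- glycerol libraries were all below their PBS group but far above WT glycerol; the changes of -2.32 ± 0.17 and -0.40 differed by 1.92 ± 0.24 (adjusted p = 0.00268). Ppp1r1b, which encodes the phosphatase inhibitor DARPP-32, had 1660.5 to 2289.3 in WT PBS, 79.4 to 236.4 in WT glycerol, 1741.3 to 3138.2 in C3-/- PBS and 1574.1 to 2252.2 in C3-/- glycerol. Its changes of -3.83 and -0.29 differed by 3.54 ± 0.40 (adjusted p = 0.00249). The C3-/- groups of this gene overlapped and the WT groups did not.

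**Figure D4:**
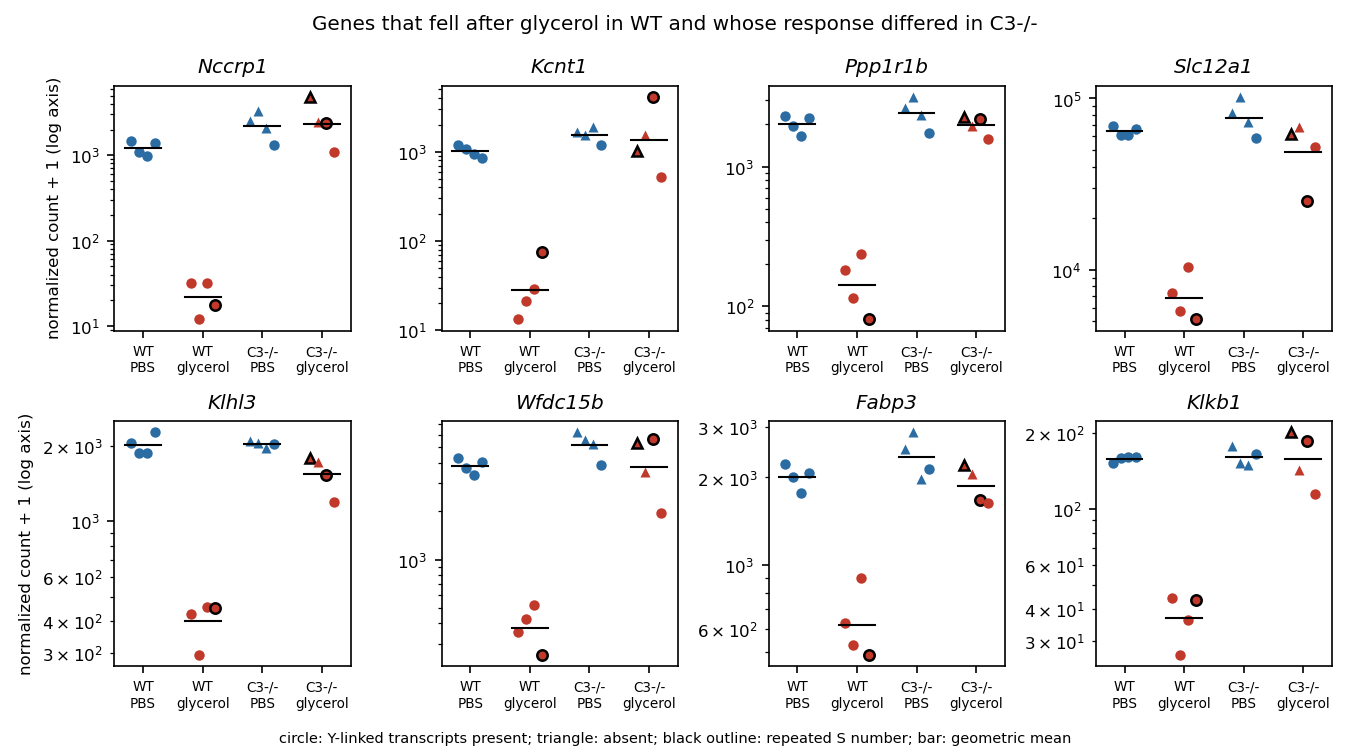
Normalised count plus 1 (log axis) in each library for genes that fell after glycerol in WT and whose response differed in C3-/-; blue is PBS and red glycerol, circles mark libraries with Y-linked transcripts and triangles those without, a black outline marks a repeated S number, and bars are geometric means of 4 libraries. In Nccrp1, Slc12a1, Klhl3 and Ppp1r1b only the WT glycerol libraries lie far below their PBS libraries.

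Other falls spread over channels, secreted proteins and metabolism. Kcnt1, a sodium-activated potassium channel, had 12.2 to 74.7 in WT glycerol and 525.6 to 4103.2 in C3-/- glycerol, with changes of -5.18 and -0.18 (difference 4.99 ± 0.76, adjusted p = 0.0109). Wfdc15b, of the whey acidic protein family, had 254.7 to 523.8 and 1940.1 to 5619.9, with -3.35 and -0.44 (difference 2.90 ± 0.42, adjusted p = 0.00979). Klkb1, plasma prekallikrein, had 25.4 to 43.3 and 113.1 to 200.1, with -2.10 and -0.03 (difference 2.07 ± 0.31, adjusted p = 0.0109). In each of these 3 genes the glycerol groups of the genotypes did not overlap. Rph3a, a Rab effector of vesicle release, and Fam107a also had smaller fitted falls in C3-/-, with differences of 4.77 (adjusted p = 0.0109) and 2.41 (adjusted p = 0.0152). Lypd2 fell by 3.96 in WT and had 0.23 in C3-/-, a difference of 4.20 (adjusted p = 0.012).

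Fabp3, a fatty acid-binding protein, fell by 1.70 in WT and had -0.33 in C3-/- (difference 1.38 ± 0.28, adjusted p = 0.04); the call was kept only with WT glycerol replicate 3 or 4 or C3-/- glycerol replicate 1, 3 or 4 omitted and otherwise reached 0.109. The same held for Dusp15, a phosphatase, whose difference of 2.70 ± 0.53 (adjusted p = 0.0392) was called only with WT glycerol replicate 2, 3 or 4 or C3-/- glycerol replicate 1 or 4 omitted and otherwise reached 0.103. Vmn1r18, a vomeronasal receptor gene, had a difference of 4.23 ± 0.84 (adjusted p = 0.0392), which was lost in 11 of the 16 fits that left out 1 library each. Further called genes, chosen after their values were seen, were Acacb and Cpt1b, which regulate fatty acid entry into mitochondria, with differences of 1.53 (adjusted p = 0.012) and 1.37 (adjusted p = 0.0217), and Rhbg, an ammonium transporter of the collecting duct, with 1.07 (adjusted p = 0.012). Erich6b, also chosen in this way, was listed at 0 in all 8 C3-/- libraries and had 27 to 40.8 in WT PBS and 0 to 3 in WT glycerol, so its difference compares a fall with no detected transcript; its call was lost without WT PBS replicate 2 or 3 (adjusted p of up to 0.0629). The Cpt1b call was lost without WT PBS replicate 1, 2 or 4, WT glycerol replicate 1 or C3-/- PBS replicate 1 or 3 (up to 0.0716).

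The 4 genes called in C3-/- only differed in what they looked like after PBS. Stbd1, which binds starch and glycogen (chr5:92603041-92606579), had 295.6, 321.9, 399.7 and 363.3 in WT PBS and 467.4, 463.5, 467.2 and 230.6 in WT glycerol. The C3-/- values were 52, 41, 48.6 and 47.8 after PBS and 321.8, 424.2, 180.4 and 482.4 after glycerol. The C3-/- PBS group stood alone below the other groups, by 2.84 against WT PBS (adjusted p = 3.6e-05), and the rise of 2.78 in C3-/- (adjusted p = 0.0001) against 0.19 in WT gave a difference of 2.59 ± 0.42 (adjusted p = 0.012). The WT groups overlapped through WT glycerol replicate 4 (230.6), which has a repeated S number; in the 13-library fit Stbd1 also rose in WT, by 0.44 (adjusted p = 0.00735), and in C3-/- by 3.23, so the rise was not called in C3-/- only there. Rnase4, a secreted ribonuclease, was the reverse: 2119.2, 2646.4, 1969.8 and 1924.9 in C3-/- PBS and 273.9, 484.1, 583.9 and 791.3 in C3-/- glycerol, against 195.9 to 301.9 over all WT libraries. It was higher in C3-/- after PBS by 2.96 (adjusted p = 6.5e-06), and its difference of responses was -1.97 ± 0.36 (adjusted p = 0.0244), which reached 0.0732 when any WT PBS library, WT glycerol replicate 1 or 2 or C3-/- PBS replicate 1, 2 or 3 was left out.

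Extl1, an enzyme of heparan sulfate synthesis, was the gene of this class with no called genotype difference after PBS. Its PBS values were 57.6, 53.7, 56.5 and 39.8 in WT and 66.9, 63.8, 80.1 and 74.8 in C3-/- (difference 0.46, adjusted p = 0.69). After glycerol it had 36.1, 18.2, 50.6 and 34 in WT and 258.6, 224.1, 264.5 and 189.7 in C3-/-. The C3-/- glycerol libraries were above every other library, and the changes of -0.64 in WT (adjusted p = 0.099) and 1.69 in C3-/- (adjusted p = 0.0021) differed by 2.33 ± 0.38 (adjusted p = 0.012). Serpina6, the corticosteroid-binding globulin, had 0 to 1.7 in WT PBS, 5.1 to 10.4 in WT glycerol, 4145.5, 5923.5, 3812 and 89.3 in C3-/- PBS and 171.3, 74.2, 17.8 and 14.3 in C3-/- glycerol. In WT the groups of Serpina6 did not overlap, and its rise of 2.62 there was not called (limma adjusted p = 0.092). In C3-/- its groups overlapped, with a change of -5.28 (limma adjusted p = 0.011). The high values, 3812 and above, were in the 3 C3-/- PBS libraries without Y-linked transcripts. Its difference of -7.90 ± 1.54 (adjusted p = 0.0388) was called only when WT glycerol replicate 4, C3-/- PBS replicate 4 or C3-/- glycerol replicate 1 was the library omitted, and otherwise reached 0.106. Among the 11 libraries with Y-linked transcripts the difference was -5.03 (adjusted p = 0.369).

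A difference of responses can come from the glycerol groups or the PBS groups. Of the 79 genes, 14 also had a called genotype difference after PBS, a comparison in which 402 genes (2.23%; 1.04% higher and 1.19% lower in C3-/-) were called. The PBS and glycerol groups did not overlap in WT for 76 of the 79 (40.6% of all tested genes) and in C3-/- for 21 (19.2%); the 79 were chosen from these same libraries, so the counts are a description.

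Gene lists placed these calls within pathways. Of all tested genes, 12.5% were called rises and 13.3% called falls in WT, and 3.68% and 1.96% in C3-/-. The counts of every list below are to be read beside those shares. All 22 tubule injury genes had a larger change in WT, as had 10494 of the 18035 tested genes; their median change was 3.12 in WT and 1.09 in C3-/-, against -0.11 and -0.06 over all genes. WT called 20 rises and C3-/- 11, and the difference was called for 2, Sox9 and Anxa2, both lower in C3-/-. The 13-library fit called 12 differences, all negative. Timp1, a metalloproteinase inhibitor, had a difference of -4.26 (adjusted p = 0.0873; -4.35 and 0.0066 in the 13-library fit). Clu, a secreted chaperone, had -3.35 (0.101; 0.0018 in the 13-library fit), and Lcn2, an iron-siderophore binder, had -2.84 (0.221; 0.028 in the 13-library fit).

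Of the 24 cytokines and chemokines, 20 were tested. WT called 19 rises and C3-/- 9, with medians of 3.12 and 1.64. The change was larger in WT for 17 of the 20, as it was for 10494 of the 18035 tested genes. The difference was called, negative, for Lif, Ccl20 and Cxcl5, and for 10 genes in the 13-library fit, all negative. Il6 had changes of 5.47 and 2.77, with a difference of -2.70 (adjusted p = 0.212; 0.017 in the 13-library fit). Of the 11 acute-phase genes 9 were tested, with 7 called rises in WT, 2 in C3-/- and medians of 5.27 and 1.63; the difference was called for Fgg alone and for 6 genes, all negative, in the 13-library fit.

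Stress pathways had few or no called differences. Of 16 heme and iron genes, WT called 8 rises and C3-/- 7, and no difference was called (3 negative in the 13-library fit). Hmox1, which degrades heme, had 651, 753, 869.4 and 793.3 in WT PBS and 7160.4, 12322, 5780.2 and 9751.9 in WT glycerol. C3-/- kidney had 264.2, 275.2, 291.3 and 688.3 after PBS and 7553.8, 3366.5, 1621.8 and 6418.2 after glycerol. Glycerol libraries exceeded PBS libraries in both genotypes, the glycerol groups overlapped, and the changes of 3.46 and 3.53 differed by 0.07 ± 0.60 (interval -1.21 to 1.36). For 14 targets of the oxidant-responsive factor Nrf2 the rises called were 8 and 7, with medians of 1.42 and 1.28 and no called difference (2 positive in the 13-library fit).

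The amino acid stress genes driven by ATF4, a factor that restores amino acid supply, had 12 called rises in WT and 9 in C3-/- of 15, with medians of 2.56 and 2.26. Trib3, a pseudokinase among them, had changes of 4.79 and 5.63, a difference of 0.84 (interval 0.14 to 1.54, adjusted p = 0.35). Of 13 endoplasmic reticulum stress genes 5 rose in each genotype, with medians of 0.72 and 1.13, and no difference was called. Each of these lists had 3 positive differences in the 13-library fit. The p53 targets had 6 called rises in WT and 5 in C3-/- of 13, with Cdkn1a, which arrests the cell cycle, at 3.43 and 3.11 (interval of the difference -1.54 to 0.89).

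**Figure D5:**
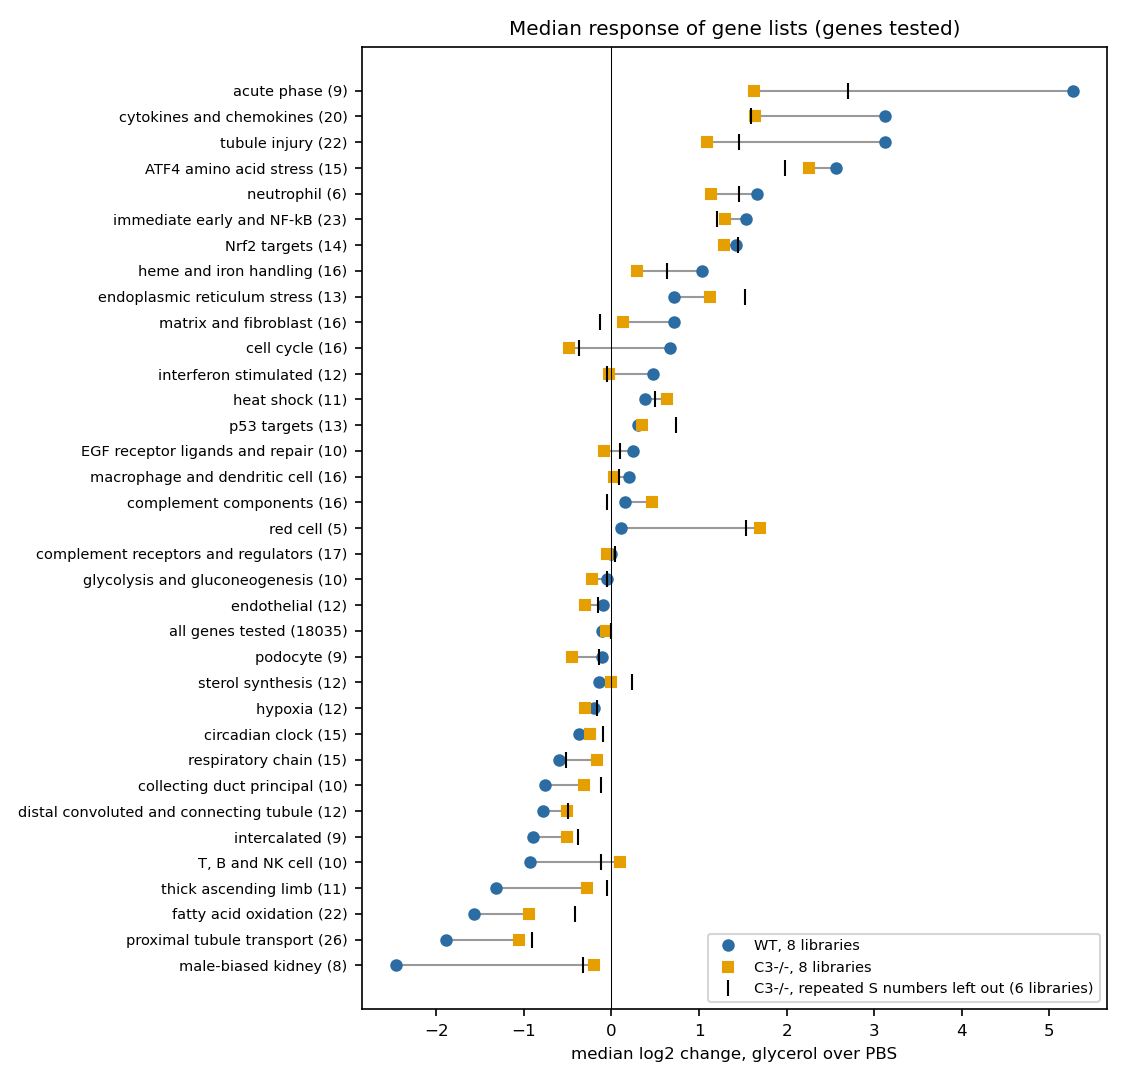
Median log2 change after glycerol of the genes in each list, in WT (blue circles), in C3-/- (orange squares) and in C3-/- with the libraries of repeated S numbers left out (black ticks). The tubule injury, cytokine and acute-phase lists have C3-/- medians of 1.09, 1.64 and 1.63 beside WT medians of 3.12, 3.12 and 5.27, while the ATF4 list has 2.26 beside 2.56.

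The cell cycle list and the matrix and fibroblast list had no called difference with all libraries. They hold only some genes of these kinds, and Uhrf1, called above, is outside them. Of 16 cell cycle genes 5 rose in WT and 1 in C3-/-, with medians of 0.67 and -0.48. Top2a, which untangles DNA in dividing cells, had changes of 1.28 and -0.67 and a difference of -1.95 (adjusted p = 0.0938; -2.55 and 0.0045 in the 13-library fit, which called 8 negative and 1 positive of the list). Of 16 matrix and fibroblast genes, WT called 7 rises and 2 falls and C3-/- called none, with medians of 0.72 and 0.13; the 13-library fit called 4 negative differences.

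No gene of the complement lists had a called difference with all libraries, and neither had C3. Among 16 complement components WT called 3 rises and 1 fall and C3-/- 2 rises, and among 17 receptors and regulators WT called 3 rises and 4 falls and C3-/- 2 rises. Of all tested genes, 12.5% were called rises and 13.3% called falls in WT, and 3.68% were called rises in C3-/-. Counts this small were not tested against those shares. The 13-library fit called 2 positive and 1 negative difference among the components and 1 in each direction among the receptors and regulators. C3ar1, the receptor for the C3a fragment, had a difference of -0.04 ± 0.71 (interval -1.56 to 1.47), and Cfb, factor B of the alternative pathway, had 0.50 ± 0.77 (interval -1.15 to 2.14). Those intervals allow differences larger than 1 log2 unit in either direction.

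Transport and metabolic lists are set beside all tested genes, of which 13.3% were called falls in WT and 1.96% in C3-/-. Of 26 proximal tubule transport genes 19 fell in WT and 7 in C3-/-, with medians of -1.89 and -1.06; no difference was called in this list, in the fit of all libraries or in the 13-library fit. Of 11 thick ascending limb genes 7 fell in WT and none was called in C3-/-, with medians of -1.32 and -0.28, and the difference was called for Slc12a1, and for 5 genes, all positive, in the 13-library fit. Collecting duct principal cell genes had 5 of 10 called falls in WT and none in C3-/-, and intercalated cell genes 5 of 9 and none; no difference was called, against 4 and 3 positive ones in the 13-library fit. Of 22 fatty acid oxidation genes 12 fell in WT and 4 in C3-/-, with medians of -1.57 and -0.94 and a called difference for Fabp3.

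Other transcripts named for kidney function had no called difference. Egf, the epidermal growth factor precursor of the distal tubule, had changes of -5.96 and -2.23 (difference 3.73, adjusted p = 0.127; 0.0038 in the 13-library fit). Pck1, a gluconeogenic enzyme of the proximal tubule, had -3.38 and 0.00 (difference 3.38, adjusted p = 0.0643). Umod, uromodulin of the thick ascending limb, had a difference of 0.63 (adjusted p = 0.921), and Slc34a1, the phosphate transporter of the proximal tubule, 1.52 (adjusted p = 0.6).

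Circadian clock genes gave 5 called falls in WT and 2 called rises in C3-/- of 15, with a median difference of 0.92. Per2, a clock repressor, had changes of -0.65 and 1.48, a difference of 2.13 (adjusted p = 0.0815). No clock difference was called with all libraries, and 6 positive ones were called in the 13-library fit. With the hour of sampling not given in the labels, its part in this was not tested.

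Markers of other cell types moved along with these results, and their part in them was not tested. Summed neutrophil markers (7 of 12 in the table) were 154.5 to 247.8 in WT PBS, 535.5 to 1232.1 in WT glycerol, 41.3 to 64.5 in C3-/- PBS and 77.9 to 246.1 in C3-/- glycerol. Macrophage and dendritic cell sums were 12238.2 to 19314.5 in WT glycerol and 8814.2 to 23825.1 in C3-/- glycerol and so overlapped. T, B and NK cell sums were 596 to 788 in WT PBS, 288.9 to 539.3 in WT glycerol, 470.5 to 541.9 in C3-/- PBS and 586.4 to 2046.6 in C3-/- glycerol. After glycerol they were thus higher in C3-/-, with the WT sums below their own PBS range. Of the 10 genes tested WT called 2 falls and C3-/- 1 rise, with median changes of -0.93 and 0.10, so the C3-/- sums do not stand for all members. Red cell transcripts were 13846.8 to 22606.8 in WT PBS and 3329.6 to 7825.3 in C3-/- PBS, and overlapped after glycerol, so the 3 called rises of red cell genes in C3-/- started from a lower level.

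Male-biased kidney transcripts summed to 817673.9 to 915500 in WT PBS, 196034.3 to 379176 in WT glycerol, 174774.1 to 777439.1 in C3-/- PBS and 37275.1 to 538192.5 in C3-/- glycerol. Their median change was -2.46 in WT and -0.20 in C3-/-, where libraries with and without Y-linked transcripts were mixed.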

How the data were processed

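RNA was measured in 16 kidney libraries in 4 groups of 4, mapped from the titles. The authors deposited a table of DESeq2-normalised counts per gene (a signal, neither raw counts nor CPM) with their log2 fold changes, p-values and test scores. Per the submitters' processing notes they used STAR 2.7.1, DESeq2 and R 3.6.1 on GRCm38, and Ensembl 96 annotation per the name of the deposited table; the counting tool and its strand setting are not stated in the labels or headers. Whole reads could not be recovered, so depth and counting error are unknown; library sums of the normalised values were 25.81 to 38.39 in units of 1e+06. The table lists 37 genes in rows identical to another gene's, none described here.

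Values were tested as log2(value + 1), which understates changes of low genes, with limma 3.58.1 (R 4.3.3, trended empirical Bayes), genotype by treatment over all 16 libraries, Benjamini-Hochberg adjusted over 18035 genes with a value of at least 10 in at least 4 libraries. SEs and 95% intervals are from that fit. Whether limma's p-values hold when whole libraries stand apart, as those with repeated S numbers did, was not tested. Gene positions are from GENCODE M21 on GRCm38.

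Genes named were C3, the 12 most negative and 12 most positive called differences with a mean of at least 50, the 6 of each direction and class ranked by the smaller response or by p, up to 4 of each gene list by p, and a set of known injury and complement genes; others are said to be chosen after their values were seen. Members, lists and tests were chosen with earlier results of these data known. Alternatives were other pseudocounts, filters, scalings, weights, covariates, a replicate block and left-out libraries. Among the genes the naming rule selects, 1 is not reported here.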

Additional observations from a re-analysis of the deposited data

Results flagged for a closer look

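The difference of responses itself passed limma's test (Benjamini-Hochberg adjusted p below 0.05) in these named genes, given as log2 values, C3-/- minus WT. Negative differences were Serpina6 -7.90, Fut2 -5.06, Cxcl5 -4.89, Sox9 -4.86, Ccl20 -4.64, Il1f6 -4.56, Fgg -4.53, Chil3 -3.93, Cxcl3 -3.75, Lif -3.62, Serpina10 -3.10, Ccl12 -3.07, Pik3r1 -2.39, Cldn1 -2.39, Ch25h -2.27, Anxa2 -2.21, Uhrf1 -2.13, Rnase4 -1.97, Osmr -1.88 and Plac8 -1.81. Positive differences were Nccrp1 5.91, Kcnt1 4.99, Rph3a 4.77, Vmn1r18 4.23, Lypd2 4.20, Ppp1r1b 3.54, Wfdc15b 2.90, Dusp15 2.70, Stbd1 2.59, Slc12a1 2.55, Fam107a 2.41, Extl1 2.33, Klkb1 2.07, Klhl3 1.92 and Fabp3 1.38. The values for Cxcl5, Il1f6 and Cxcl3 come from PBS groups listed at 0 and depend on the pseudocount of 1. Sizes of other genes with a group near 0 depend on it as well. Among them are Rph3a (0 to 2.8 in WT glycerol), Lypd2 (0 to 4.2) and Vmn1r18 (0.6 to 9.8). Serpina6 (0 to 1.7 in WT PBS) and Ccl20 (0 to 2.2 over the PBS libraries) are others.

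A single library stood apart from the other 3 of its group (Dixon's ratio above its 95% critical value for 4 values) in 18 of 215 groups of named genes, where chance gives about 1 in 20. C3-/- PBS replicate 4, the library of that group with Y-linked transcripts, did so for Serpina6 (89.3 normalised counts), Bhmt (450.4), Plac8 (212.5), Hmox1 (688.3) and Slc34a1 (136425). WT PBS replicate 4 did so for Plac8 (156.5), replicate 3 for Ch25h (43.2) and Gsta1 (3.7), and replicate 2 for Fut2 (0.8) and Lcn2 (104.5). WT glycerol replicate 4 did so for Stbd1 (230.6) and Umod (19329.4), and replicate 2 for Klhl3 (293.7) and Wfdc16 (0). C3-/- glycerol replicate 3 did so for Anxa2 (1367.4) and Krt20 (58.3), C3-/- PBS replicate 2 for Fosl1 (3.1) and C3-/- PBS replicate 1 for C5ar1 (6.4).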

How the results depend on the processing

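Directions of the 79 called differences of responses were the same in all 16 fits that left out 1 library, and 35 were called in each of them. The number called ran from 38 (without C3-/- PBS replicate 2) to 225 (without WT glycerol replicate 4; 179 without C3-/- glycerol replicate 1). Over the same fits, WT changes ran from 3446 to 5360, C3-/- changes from 492 to 2780, genotype differences after PBS from 220 to 609, shared responses from 435 to 1555, smaller or opposite responses in C3-/- from 36 to 206 (75 as reported), and changes called only in C3-/- from 2 to 19 (4 as reported). The causes were not tested, beyond fewer libraries.

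In the order differences of responses, WT changes, C3-/- changes, PBS differences, shared, smaller or opposite, and C3-/- only, the 13-library fit gave 1858, 10028, 4142, 3481, 2976, 1696 and 150. A term for the repeated S numbers gave 1324, 8339, 2608, 1510, 1950, 1194 and 98, that term with one for Y-linked transcripts 1580, 8886, 3393, 628, 2534, 1423 and 130, and library weights 3225, 10902, 5589, 6869, 3627, 2865 and 333. All 79 calls were kept in each of these fits, which reuse libraries from which the 79 were chosen. A term for Y-linked transcripts alone changed the PBS differences to 157. A pseudocount of 8 gave 141 differences of responses and 135 smaller or opposite responses. Testing genes with a mean of at least 100 gave 48 and 45, and 203 PBS differences; fewer genes were tested. Using the 11 libraries with Y-linked transcripts, chosen after seeing the data, limma gave 0 differences of responses (870 at an unadjusted p below 0.05), 7 C3-/- changes, 51 PBS differences, 7 shared, 0 smaller or opposite and 0 C3-/- only; that fit had fewer samples.

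With the replicate number as a block, 41 differences of responses were called, 39 of them among the 79, with 632 C3-/- changes, 536 shared, 39 smaller or opposite and 2 C3-/- only. Deviations from the group means gave r from -0.692 to 0.385 between libraries with the same number (4 of 24 pairs over 0.1). Between libraries with different numbers r ran from -0.691 to 0.669 (13 of 72 pairs over 0.1). No sign of pairing by number was seen. The libraries that stood apart enter both ranges, so this check cannot exclude pairing.

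A pseudocount of 0.5, no filter, upper-quartile and quantile scaling, no trend and robust moderation left the counts of differences of responses between 66 and 113. Depth is unknown, so no limit from counting error can be given.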

Other observations

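A few transcripts had differences of responses that were large but not called. Jchain, the joining chain of secreted antibodies, had 4.18 (limma adjusted p = 0.0643), and Selp, the endothelial adhesion molecule P-selectin, had log2 changes of 3.63 in WT and 0.24 in C3-/- (difference -3.39, adjusted p = 0.0643). Atf3, a stress-induced transcription factor, had changes of 2.97 in WT and 5.20 in C3-/- (difference 2.23, adjusted p = 0.214), and was lower in C3-/- after PBS by 2.23 on the log2 scale (adjusted p = 0.03). Spp1, which encodes osteopontin, had a difference of -2.97 (adjusted p = 0.0643), and Fgb, the beta chain of fibrinogen, had -4.67 (adjusted p = 0.0519).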
